A study of Mus musculus with 4 samples.

Results

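The CXC and CX3C chemokine genes Cxcl1, Cxcl2, Cxcl3, Cxcl5, Cxcl9, Cxcl10, Cxcl11, Cxcl12, Cxcl16 and Cx3cl1 were read in RNA-seq of 4T1 cells. These 10 genes were taken by gene symbol from a table of 49585 genes, and all 10 were found. 4T1 is a murine TNBC line of BALB/c origin, and its single-cell clones 4T1-HM and 4T1-LM have a high and a low metastatic capacity. Each clone was cultured for 48 h with 50 μmol/L of deferasirox (DFX), an oral iron chelator, or with its solvent DMSO, which gave the 4 conditions HM_DFX, HM_Ctrl, LM_DFX and LM_Ctrl. Each condition has 1 library and each phenotype is represented by 1 clone, so no difference below has a replicate check, no p-value is given, and what belongs to the metastatic phenotype and what to the individual clone cannot be told apart. Values are FPKM, the number of sequenced fragments divided by the exon length of the gene and by the size of the library. The 4 comparisons below share libraries, so their values are not independent of each other. Bulk FPKM cannot tell fewer expressing cells from less RNA per cell.

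Chemokines are small secreted proteins that guide migrating leukocytes through G protein-coupled receptors, and they are named after the spacing of their first cysteines. Cxcl1, Cxcl2, Cxcl3 and Cxcl5 carry a glutamate-leucine-arginine (ELR) motif and attract neutrophils through CXCR2, and their genes are classical targets of NF-kB. Cxcl9, Cxcl10 and Cxcl11 lack this motif, are induced by interferons and attract activated T cells and natural killer cells through CXCR3. Cxcl12 is a homeostatic ligand of CXCR4 and of the scavenging receptor ACKR3. Cxcl16 and Cx3cl1 are made as membrane-anchored proteins on a mucin stalk, are released by the proteases ADAM10 and ADAM17, and bind CXCR6 and CX3CR1. 4T1 tumors are known for an expansion of myeloid cells, above all neutrophils, in the host.

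The libraries held between 14363065 and 21883855 fragments, and fragment numbers could be recovered for all 10 genes. Intervals given below are 95% intervals for counting error only, since reads without molecular identifiers are not independent molecules. Log2 fold changes are differences of log2(FPKM + 1), a scale that understates the change of weakly expressed genes. A 2-fold difference on this scale counts as higher or lower for genes that reached 1 FPKM in any library. That level was reached by 12669 genes of the table and by 6 of the 10 chemokine genes, namely Cxcl1, Cxcl5, Cxcl10, Cxcl11, Cxcl16 and Cx3cl1. Cxcl11 passed only through its level under DFX. The labelled cell type was checked with markers. Of 7 epithelial markers, 6 reached 1 FPKM, with a summed level of 1600 FPKM in HM_Ctrl and 539 in HM_DFX, and of 2070 in LM_Ctrl and 1030 in LM_DFX. The sums rest mainly on Krt8 and Krt18. Under DFX, 4 of the 6 were at least 2-fold lower in HM and 0 higher, beside 12.4% lower and 6.93% higher of all expressed genes. In LM 1 was lower (Krt8) and 1 higher (Krt19, from 46.4 to 103 FPKM), beside 8.72% and 7.09%. Esrp1 had log2 fold changes of 0.02 in HM and 0.15 in LM. The part of these marker differences in the values below was not tested. Of 9 leukocyte markers, 4 were at 0 in every library, among them the T cell marker Cd3e and the macrophage marker Adgre1, and the pan-leukocyte gene Ptprc had at most 4 fragments. The summed leukocyte list ran from 13.7 FPKM in HM_Ctrl to 111 in LM_DFX, nearly all of it from Cd68 and Cd74. Of 4 genes read as a check of the chelator, 1 passed 2-fold in each clone. Ndrg1, a gene known to be induced by iron chelators, was 3.26 times as high in HM_DFX as in HM_Ctrl and 12.5 times as high in LM_DFX as in LM_Ctrl. The ratio of DFX to control was 1.72 in HM and 1.76 in LM for Tfrc. It was 0.622 and 0.704 for Fth1, and 1.44 and 0.909 for Ftl1.

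Without DFX, the most abundant of these transcripts were Cxcl16, Cx3cl1 and Cxcl5 in both clones. In HM_Ctrl the order of FPKM was Cxcl16 at 28.6, Cxcl5 at 17.1, Cx3cl1 at 12, Cxcl1 at 8.15 and Cxcl10 at 3.39. In LM_Ctrl it was Cxcl16 at 29.9, Cx3cl1 at 23.4, Cxcl5 at 6.55, Cxcl1 at 5.49 and Cxcl10 at 1.13. The counting intervals of Cxcl5 (5.66 to 7.55) and Cxcl1 (4.68 to 6.41) overlapped in LM_Ctrl, so their order there was not resolved. With DFX, Cxcl10 took the first place in both clones. HM_DFX had Cxcl10 at 77.6, Cxcl1 at 41.7, Cxcl16 at 35.9, Cxcl5 at 7.77, Cx3cl1 at 3.61 and Cxcl11 at 1.17. LM_DFX had Cxcl10 at 95.3, Cxcl16 at 44.3, Cxcl1 at 25.8, Cx3cl1 at 10.4, Cxcl11 at 3.84 and Cxcl5 at 1.62. These per-length levels depend on the length by which fragments were divided. For Cxcl1 and Cxcl10 that length was the whole span of the gene, 1875 and 2252 bases, because a transcript with retained introns is annotated, while their principal spliced transcripts measure 953 and 1094 bases. Per principal transcript, Cxcl10 stood at 160 in HM_DFX and 196 in LM_DFX, and Cxcl1 moved ahead of Cx3cl1 in HM_Ctrl (16 against 14.2), of Cxcl5 in LM_Ctrl (10.8 against 7.75) and of Cxcl16 in LM_DFX (50.7 against 49.6). Cxcl3, below 1 FPKM as deposited, reached 1.71 per principal transcript in LM_DFX. Plain ratios of a gene between libraries are not affected by this choice. Values of log2(FPKM + 1), the 1 FPKM limit and the calls made with them do depend on it. Those below use the FPKM as deposited.

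**Figure D1:**
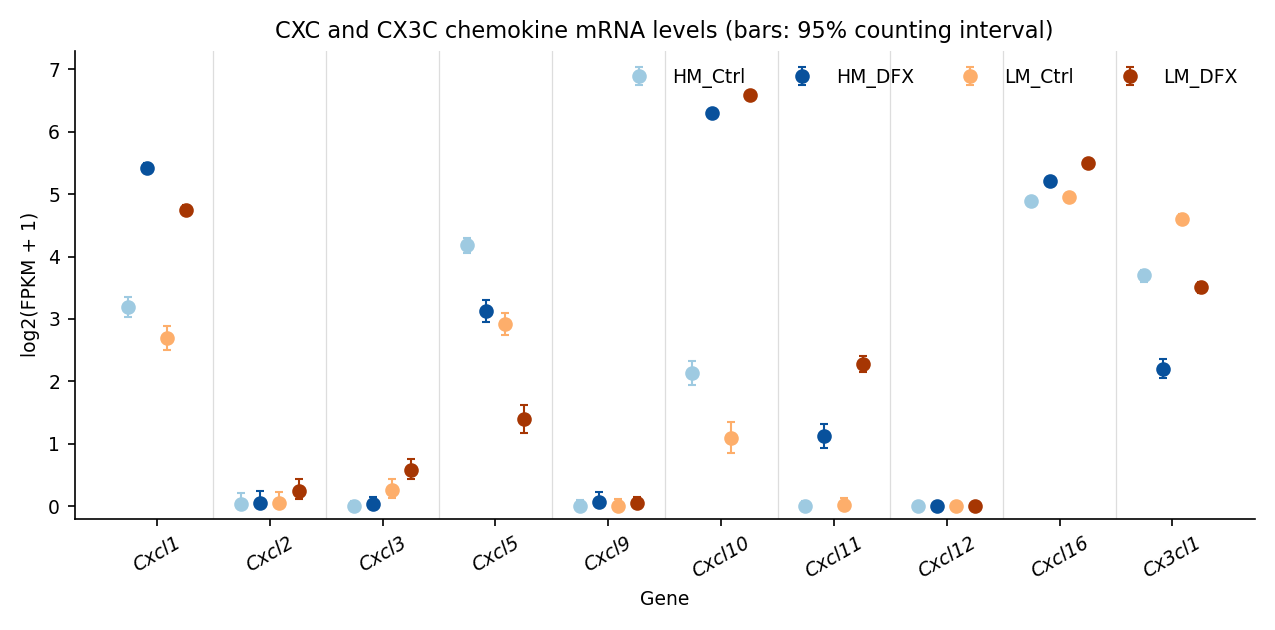
Level of each chemokine gene as log2(FPKM + 1) in the 4 libraries, with bars for the 95% counting interval. Cxcl10 is the highest point under DFX in both clones, Cxcl5 and Cx3cl1 are lower under DFX than in the control of the same clone, and Cxcl2, Cxcl9 and Cxcl12 stay near 0 in all 4 libraries.

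The sequence upstream of the genes was read for the ELR+ ligands and for Cxcl10, because these ELR+ genes are close neighbors with unlike levels and Cxcl10 was the most abundant of the chemokine transcripts under DFX. RefSeq promoters of build GRCm38.p6 matched 7 of the 10 genes, with no entry for Cxcl5, Cxcl11 and Cxcl16. The reference genome is from C57BL/6J mice, and the 4T1 sequence was not read. Each stretch runs 5′ to 3′ toward the start of the gene and ends before the first annotated exon. Capitals mark matches on either strand to an NF-kB motif (GGG and TTCC with any 3 bases between them), an interferon-stimulated response element or ISRE (GAAA repeated after any 2 bases) and an AP-1 motif (TGANTCA).
Cxcl1, chr5:90890995-90891240, strand +: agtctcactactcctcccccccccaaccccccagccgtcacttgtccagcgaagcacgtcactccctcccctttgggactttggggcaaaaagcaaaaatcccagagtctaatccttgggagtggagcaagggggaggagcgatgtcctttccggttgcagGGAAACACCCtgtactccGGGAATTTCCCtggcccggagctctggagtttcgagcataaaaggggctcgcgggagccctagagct
Cxcl2, chr5:90903649-90903870, strand +: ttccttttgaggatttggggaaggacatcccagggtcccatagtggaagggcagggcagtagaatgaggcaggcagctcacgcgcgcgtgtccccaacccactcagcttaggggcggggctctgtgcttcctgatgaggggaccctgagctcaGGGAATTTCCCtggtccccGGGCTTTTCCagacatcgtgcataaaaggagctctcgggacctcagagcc
Cxcl3, chr5:90785851-90786100, strand +: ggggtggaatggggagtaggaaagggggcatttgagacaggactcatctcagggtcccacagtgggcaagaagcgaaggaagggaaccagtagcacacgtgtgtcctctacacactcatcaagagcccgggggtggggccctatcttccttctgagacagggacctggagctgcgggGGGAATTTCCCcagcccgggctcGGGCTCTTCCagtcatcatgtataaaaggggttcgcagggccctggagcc
Cxcl10, chr5:92348890-92349139, strand -: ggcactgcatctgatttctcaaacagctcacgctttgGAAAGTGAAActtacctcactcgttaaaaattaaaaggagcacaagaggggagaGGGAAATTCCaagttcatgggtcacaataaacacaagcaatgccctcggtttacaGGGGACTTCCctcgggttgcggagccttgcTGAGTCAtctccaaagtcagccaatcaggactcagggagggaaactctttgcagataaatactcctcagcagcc

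Within 250 bases upstream of the RefSeq start, the 3 neighboring genes Cxcl1, Cxcl2 and Cxcl3 held the same NF-kB match GGGAATTTCC, at −71, −97 and −73, counted from −1 at the base before the start. Its reverse complement also matches the motif 1 base further on, so this element counts as 2 overlapping matches. Each of these genes had 1 more NF-kB match close by. Cxcl10 had NF-kB matches at −159 (GGGAAATTCC) and −104 (GGGGACTTCC), an ISRE match at −213 (GAAAGTGAAA) and an AP-1 match at −74. No match to these motifs or to the hypoxia motif ACGTG was found for Cxcl9, Cxcl12 and Cx3cl1, which says only that these letters are not in the window. For Cx3cl1, all 250 bases were searched, but only 79 of them lie before the first annotated exon. ACGTG was matched once in Cxcl1 at −196 and by overlapping matches on both strands in Cxcl3. Over all 32851 RefSeq promoter windows of this length, the NF-kB motif was matched in 4.65%, the ISRE in 2.98%, the AP-1 motif in 6.75% and ACGTG in 16.6%. A match is a description of the sequence and not a bound site.

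**Figure D2:**
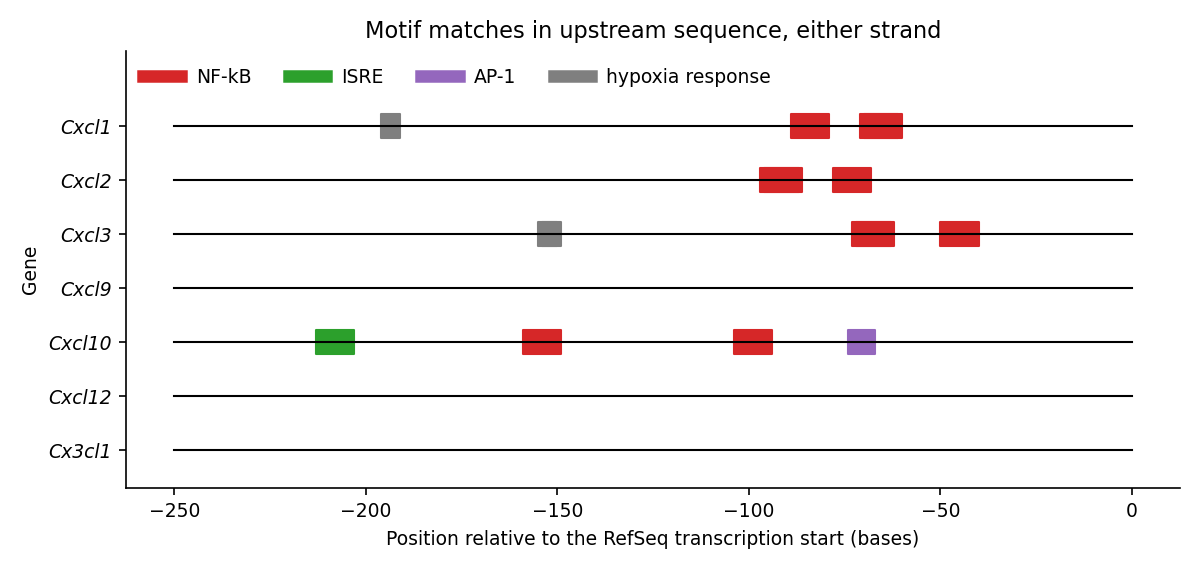
Matches on either strand to 4 motifs in the 250 bases upstream of the RefSeq start of the 7 genes with an entry, with position in bases on the horizontal axis. Cxcl1, Cxcl2 and Cxcl3 share an NF-kB element close to the start. The further NF-kB match lies upstream of this element in Cxcl1 and downstream of it in Cxcl2 and Cxcl3. The ISRE match was found in Cxcl10 alone of these 7.

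Under DFX the chemokine genes differed from the controls in both directions. In HM_DFX, Cxcl1, Cxcl10 and Cxcl11 passed 2-fold upward from HM_Ctrl, 3 of 6 expressed chemokine genes beside 6.93% of all expressed genes. Cxcl5 and Cx3cl1 passed it downward, 2 of 6 beside 12.4%. In 4T1-LM the calls fell on the same genes. LM_DFX had 3 of the 6 higher, against 7.09% of all expressed genes, and 2 lower, against 8.72%. The median log2 fold change over the 6 genes was 0.72 in HM and 1.30 in LM, beside −0.10 and −0.04 over all expressed genes. These medians summarize genes that moved in opposite directions. Since Cxcl11 is among the 6 only because it was high under DFX, the counts describe these genes and are not support for a group response.

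**Figure D3:**
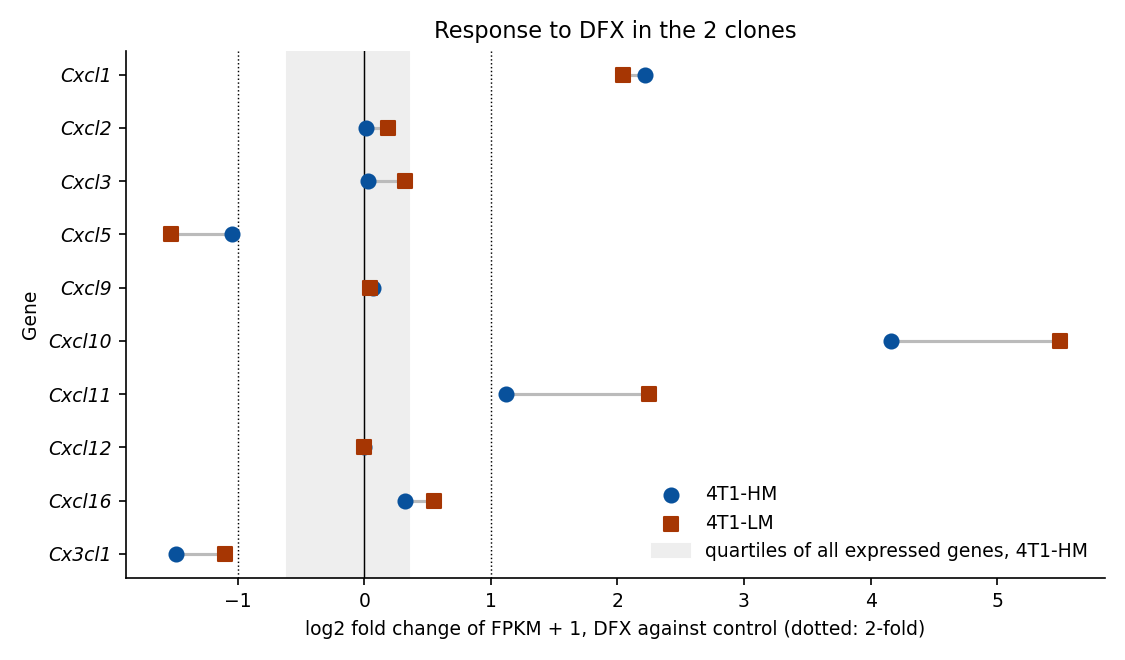
Log2 fold change of FPKM + 1 under DFX for each gene, with circles for 4T1-HM, squares for 4T1-LM, dotted lines at 2-fold and a shaded band for the quartiles of all expressed genes in 4T1-HM (−0.61 to 0.35). Cxcl10, Cxcl1 and Cxcl11 lie beyond 2-fold on the right and Cxcl5 and Cx3cl1 on the left in both clones.

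Among the ELR+ ligands, Cxcl1 and Cxcl5 moved in opposite directions. Cxcl1 (ENSMUSG00000029380, chromosome 5 from 90891241 to 90893115 of mm10, plus strand), the mouse counterpart of the GRO chemokines, stood at 8.15 FPKM without and 41.7 with DFX in 4T1-HM, and at 5.49 without and 25.8 with DFX in 4T1-LM. Both DFX libraries were above both controls. The ratio was 5.12 in HM (4.47 to 5.89, from 1124 and 256 fragments) and 4.69 in LM (3.98 to 5.57, from 1058 and 162 fragments), with log2 fold changes of 2.22 and 2.04. Of the 12669 expressed genes, 78 had a larger log2 fold change than Cxcl1 in HM and 166 in LM. Cxcl5 (ENSMUSG00000029371, chromosome 5 from 90759360 to 90761624, plus strand), a neutrophil attractant of epithelial cells, stood at 17.1 FPKM without and 7.77 with DFX in 4T1-HM, and at 6.55 without and 1.62 with DFX in 4T1-LM. It was lower under DFX within each clone. The counting intervals of HM_DFX (6.75 to 8.9) and LM_Ctrl (5.66 to 7.55) overlapped, so the order of these libraries was not resolved. HM_Ctrl was 2.20 times as high as HM_DFX (1.87 to 2.60) and LM_Ctrl was 4.05 times as high as LM_DFX (3.04 to 5.44), with log2 fold changes of −1.05 and −1.53. The value of −1.05 lies just inside the threshold, and with median-ratio scaling of the libraries it no longer passed. The FPKM of Cxcl5 was 2.10 times that of Cxcl1 in HM_Ctrl and 0.186 times in HM_DFX, and 1.19 times in LM_Ctrl and 0.0628 times in LM_DFX. The summed FPKM of the 4 ELR+ ligands was 1.96 times as high with DFX in HM and 2.29 times in LM, so the gain in Cxcl1 outweighed the loss in Cxcl5.

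The remaining ELR+ ligands were near the limit of detection. Cxcl2 (ENSMUSG00000058427, chromosome 5 from 90903871 to 90905938), also called MIP-2, had 1 fragment each in HM_Ctrl, HM_DFX and LM_Ctrl and 8 in LM_DFX, an FPKM of 0.177. Its ratio in LM was 5.75 with an interval from 0.771 to 255, so no difference was detectable at this depth. Cxcl3 (ENSMUSG00000029379, chromosome 5 from 90786103 to 90789600) gave 0 fragments without and 1 with DFX in 4T1-HM, and 11 without and 38 with DFX in 4T1-LM. In LM the ratio was 2.48 (1.24 to 5.39), at a level of 0.496 FPKM or less. Nearly all of its fragments were thus found in 4T1-LM. For HM_Ctrl, the 3 fragments that a count of 0 allows correspond to 0.0512 FPKM. Cxcl2 and Cxcl3 share 7.59% and 5.46% of their 31-base words with other genes, mainly with each other, and fragments could be split between them. Cxcl1 lies 10.8 kb from Cxcl2 and shares no such word with any other gene.

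Among the CXCR3 ligands, which are interferon-inducible, Cxcl10 had the largest response of the 10 genes on the log2(FPKM + 1) scale. As a plain ratio in LM, Cxcl11 exceeded it, from 1 fragment in the control. Cxcl10 (ENSMUSG00000034855, chromosome 5 from 92346638 to 92348889, minus strand), also called IP-10, stood at 3.39 FPKM without and 77.6 with DFX in 4T1-HM, and at 1.13 without and 95.3 with DFX in 4T1-LM. The DFX libraries stood far above both controls. The ratio was 22.9 in HM (19.1 to 27.5, from 2509 and 128 fragments) and 84.4 in LM (61.9 to 118, from 4699 and 40 fragments). The log2 fold changes were 4.16 and 5.50, and of the 12669 expressed genes only 4 had a larger value in HM and 2 in LM. Cxcl11 (ENSMUSG00000060183, chromosome 5 from 92359544 to 92365485, minus strand), or I-TAC, gave 0 fragments without and 64 with DFX in 4T1-HM, and 1 without and 319 with DFX in 4T1-LM, with FPKM of 1.17 and 3.84 under DFX. The controls of both clones were at or near 0 and both DFX libraries were above 1 FPKM. Set against the 3 fragments that a count of 0 allows, the 64 fragments of HM_DFX give a ratio of 24.9, and the exact interval of the ratio in HM starts at 19.7. The ratio in LM was 229 (40.9 to 9090). The annotation classes Cxcl11 as a polymorphic pseudogene, a gene whose reading frame is broken in some strains and intact in others, so its RNA does not tell whether protein is made. Its count is also uncertain, since 42.2% of its 31-base words occur in another gene, mainly Gm2673 on the opposite strand of the same locus, which was at 0 in all 4 libraries. Cxcl9 (ENSMUSG00000029417, chromosome 5 from 92321347 to 92328079, minus strand), or MIG, a ligand known for its dependence on interferon gamma, had 0 fragments in both controls and 2 in each DFX library. At most 0.0462 FPKM was measured, so Cxcl9 was not distinguishable from 0 with or without DFX, although it lies 18.6 kb from Cxcl10. The macrophage marker Cd68 was also higher in the DFX libraries, at 12.9 FPKM without and 37.4 with DFX in 4T1-HM, and at 12.3 without and 83.1 with DFX in 4T1-LM, while 4 of the 9 leukocyte markers were at 0 in all libraries and Ptprc and Itgam had at most 4 fragments. Its part in the Cxcl10 values was not tested. The summed FPKM of the 3 CXCR3 ligands was 23.2 times as high with DFX in HM and 86.6 times in LM.

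The homeostatic ligand Cxcl12 (ENSMUSG00000061353, chromosome 6 from 117168535 to 117181367, plus strand), a product of stromal cells in most tissues, had 0 fragments in all 4 libraries. The 3 fragments that a count of 0 allows correspond to between 0.0168 and 0.0255 FPKM. Of 7 stromal markers, 3 were likewise at 0 in every library, Thy1, Lum and Pdgfrb, and their summed level lay between 3.51 and 5.64 FPKM, with Pdgfra the only one to reach 1 FPKM.

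The membrane-anchored ligands differed from each other. Cx3cl1 (ENSMUSG00000031778, chromosome 8 from 94772009 to 94782427, plus strand), fractalkine, stood at 12 FPKM without and 3.61 with DFX in 4T1-HM, and at 23.4 without and 10.4 with DFX in 4T1-LM. Each DFX library was below the control of its clone, and LM_DFX was close to HM_Ctrl. HM_Ctrl was 3.31 times as high as HM_DFX (2.83 to 3.88, from 787 and 204 fragments), and LM_Ctrl was 2.25 times as high as LM_DFX (2.07 to 2.45, from 1445 and 892 fragments). The log2 fold changes were −1.49 and −1.10. Cxcl16 (ENSMUSG00000018920, chromosome 11 from 70453983 to 70459984, minus strand), which also acts as a scavenger receptor for oxidized lipoprotein, stood at 28.6 FPKM without and 35.9 with DFX in 4T1-HM, and at 29.9 without and 44.3 with DFX in 4T1-LM. Both DFX libraries were above both controls by less than 2-fold. The ratio was 1.25 in HM (1.17 to 1.35) and 1.48 in LM (1.39 to 1.58), both above 1 by more than counting error, with log2 fold changes of 0.32 and 0.55. Of the 31-base words of Cxcl16, 18.5% also occur in another gene, mainly Zmynd15, which overlaps it on the opposite strand and had at most 1.48 FPKM. The summed FPKM of the pair was nearly the same with DFX, at 0.973 times the control in HM and 1.03 times in LM, while the FPKM of Cxcl16 went from 2.39 to 9.92 times that of Cx3cl1 in HM and from 1.28 to 4.27 times in LM.

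The untreated clones were compared to see which chemokine transcripts set 4T1-HM apart from 4T1-LM. HM_Ctrl was above LM_Ctrl by 2-fold or more for 2 of the 6 expressed genes, against 3.65% of all expressed genes, and below it by as much for 0, against 3.15%. Cxcl5 was 2.61 times as high in HM_Ctrl (2.21 to 3.10, log2 fold change 1.26). Cxcl10 was 3.01 times as high (2.09 to 4.4), but from only 128 and 40 fragments, and its log2 fold change of 1.05 lies just inside the threshold. Cxcl1 was 1.48 times as high (1.21 to 1.82), and Cxcl16 differed by less than counting error, with a ratio of 0.958 (0.890 to 1.03). Cx3cl1 was 1.95 times as high in LM_Ctrl as in HM_Ctrl (1.79 to 2.13), and its log2 fold change of −0.91 lies just outside the threshold. The summed ELR+ ligands were 2.06 times as high in HM_Ctrl as in LM_Ctrl.

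Under DFX, Cxcl5 was again higher in 4T1-HM, while Cx3cl1 and Cxcl11 were higher in 4T1-LM. HM_DFX was at least 2-fold higher than LM_DFX for 1 of the 6 genes, against 3.31% of all expressed genes, and at least 2-fold lower for 2, against 5.05%. The gene that was higher was Cxcl5, at 4.80 times (3.62 to 6.43, log2 fold change 1.74), and only 65 of the 12669 expressed genes had a larger value. The genes that were lower were Cx3cl1, which was 2.87 times as high in LM_DFX (2.46 to 3.36), and Cxcl11, which was 3.27 times as high in LM_DFX (2.49 to 4.35). Cxcl3, below the 1 FPKM limit and so not counted, was 24.9 times as high in LM_DFX (4.21 to 1010), from 38 fragments against 1. Cxcl10, 3.01 times as high in HM without DFX, was 1.23 times as high in LM with it (1.17 to 1.29). Cxcl1 was 1.62 times as high in HM_DFX (1.49 to 1.76), close to its ratio without DFX.

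The response itself was compared between the clones as the difference of the log2 fold changes, HM minus LM. This difference reached 2-fold toward a lower value in HM for 2 of the 6 genes, against 5.38% of all expressed genes, and toward a higher value for 0, against 3.52%. The 2 genes were Cxcl10, with a difference of −1.34, and Cxcl11, with −1.13. Both controls of Cxcl11 were at or near 0, so its difference mostly reflects its levels under DFX. The ratio of Cxcl11 had only a lower limit in HM, 19.7, and an interval from 40.9 to 9090 in LM. A weaker fold of Cxcl11 in HM was therefore not resolved. As a ratio of FPKM, the fold of Cxcl10 in LM was 3.70 times that in HM, with 40 fragments in LM_Ctrl behind the former. Cxcl1 responded nearly alike, with a difference of 0.18, and Cxcl16 (−0.24), Cx3cl1 (−0.39) and Cxcl5 (0.48) stayed within 2-fold. Each of the 6 expressed genes moved to the same side in 4T1-HM as in 4T1-LM. Cxcl11 is among them only through its level under DFX. The share of all expressed genes that moved to the same side was not counted, so this is description only. Whether the responses differ beyond the variation between cultures could not be tested with 1 library per condition.

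The makeup of the chemokine fragments shifted with DFX. Summed over the 10 genes, 3154 fragments were found without and 5669 with DFX in 4T1-HM, and 3272 without and 10009 with DFX in 4T1-LM. The summed FPKM was 2.42 times as high with DFX in HM and 2.73 times in LM. Cxcl10 made up 4.06% of these fragments in HM_Ctrl (exact 95% binomial interval 3.40 to 4.81) and 44.3% in HM_DFX (43.0 to 45.6). In LM its share was 1.22% (0.875 to 1.66) in the control and 46.9% (46.0 to 47.9) with DFX. Cx3cl1 went from 25% to 3.60% in HM and from 44.2% to 8.91% in LM. Cxcl16, with the largest share in HM_Ctrl at 45.9%, had 27.4% in HM_DFX, although its own FPKM was not lower.

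Of the 10 genes, 7 lie on chromosome 5 in 2 groups 1415.4 kb apart, and neighbors there had unlike levels. The first group, from Cxcl5 to Cxcl2, spans 146.6 kb and holds 11 genes of the table, of which 2 reached 1 FPKM, Cxcl5 and Cxcl1, at 129.6 kb from each other. They moved in opposite directions under DFX. The other chemokine genes in this stretch include Ppbp, with 0.257 FPKM at most, and Pf4 and Cxcl15, both at 0. The second group, from Cxcl9 to Cxcl11, spans 44.1 kb and holds 5 genes, of which 2 reached 1 FPKM, Cxcl10 and Cxcl11. Art3, which overlaps Cxcl10 and Cxcl11 on the opposite strand, had at most 0.0697 FPKM.

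**Figure D4:**
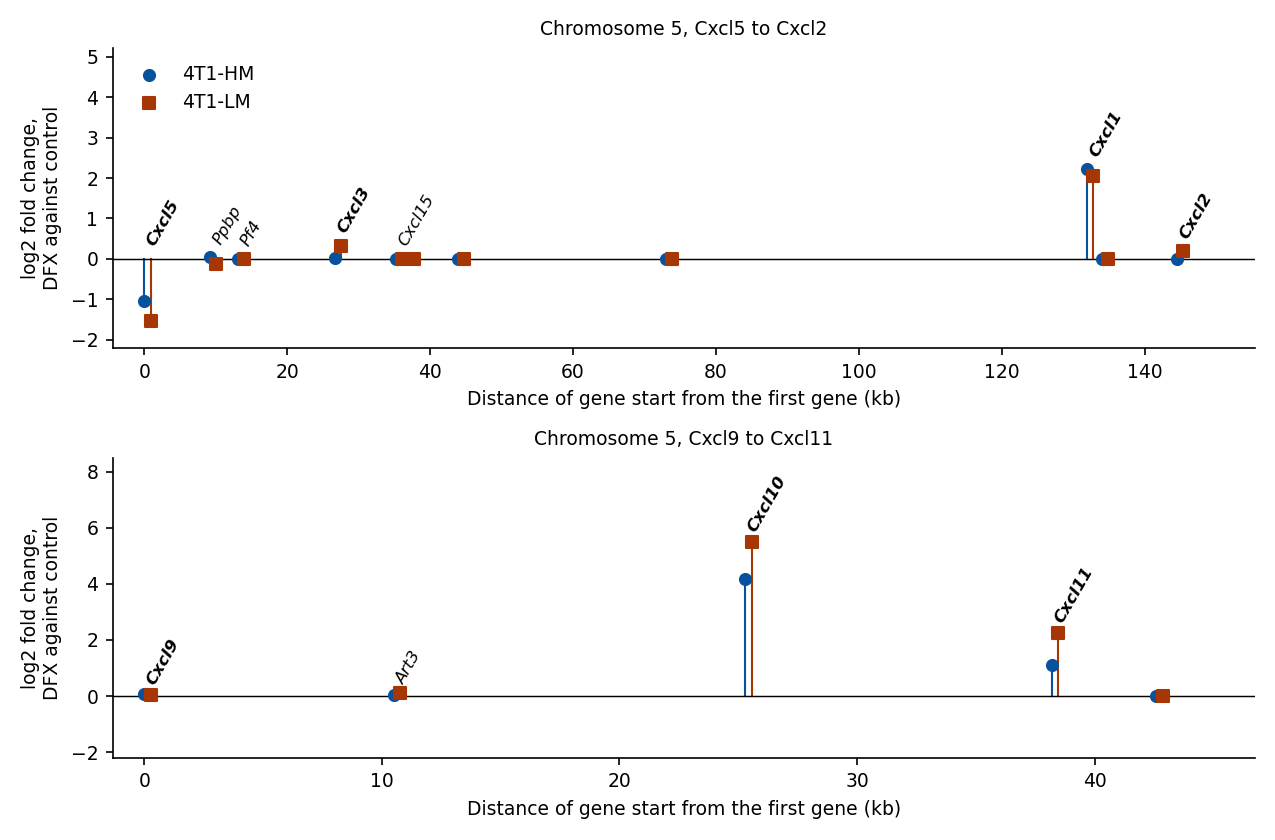
Log2 fold change of FPKM + 1 under DFX along both groups of chemokine genes on chromosome 5, with circles for 4T1-HM, squares for 4T1-LM and distance from the first gene in kb on the horizontal axis. The 7 genes studied are in bold and predicted genes are drawn without a name. Cxcl5 and Cxcl1 point in opposite directions, Cxcl10 and Cxcl11 point up, and the genes between them stay near 0.

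The receptors and processing enzymes of these ligands were read from a list. None of the 7 signaling receptor genes Cxcr1 to Cxcr6 and Cx3cr1 reached 1 FPKM in any library, and 2 were at 0 in all of them. The highest value was 0.862 FPKM for Cxcr3 in HM_Ctrl. Of 4 atypical receptors, which bind chemokines without G protein signaling, 1 was expressed. This was Ackr3, the scavenger of Cxcl12 and Cxcl11, at 13 FPKM without and 6.40 with DFX in 4T1-HM, and at 30.2 without and 21.6 with DFX in 4T1-LM. Its log2 fold change was −1.16 in HM_Ctrl against LM_Ctrl, −0.92 under DFX in HM and −0.47 under DFX in LM. The ADAM proteases that release Cxcl16 and Cx3cl1 were well expressed and stayed within 2-fold. Adam10 had log2 fold changes of −0.40 in HM and −0.36 in LM under DFX, and Adam17 of −0.30 and −0.29. Of the other 5 chemokine-cleaving proteases, Mmp9 stood at 1.64 FPKM without and 0.748 with DFX in 4T1-HM, and at 108 without and 24.0 with DFX in 4T1-LM. It was thus far higher in 4T1-LM than in 4T1-HM, and the lower value under DFX passed 2-fold in 4T1-LM. Mmp12, the macrophage metalloelastase, had 1 fragment in either control, 225 in HM_DFX and 92 in LM_DFX, with FPKM of 2.16 and 0.581 under DFX. None of the other 6 CXC ligand genes of the list (Cxcl13, Cxcl14, Cxcl15, Cxcl17, Pf4 and Ppbp) reached 1 FPKM.

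Genes that are known to act upstream of these chemokines were counted by the same rule. Beside the counts stand the shares of all expressed genes, 6.93% higher and 12.4% lower in HM_DFX, and 7.09% higher and 8.72% lower in LM_DFX. Among 15 expressed NF-kB and inflammatory genes, HM_DFX had 7 higher and 1 lower by 2-fold (median 0.88 on the log2 scale), and LM_DFX had 4 higher and 1 lower (median 0.54). Taking the larger absolute log2 fold change of both clones, the list was led by Nfkbia, the NF-kB inhibitor and feedback target, at 2.70 in HM and 1.41 in LM, and by the subunits Relb (1.95 and 1.51) and Rela (1.61 and 1.90). The gene that was lower in both clones, named after its values were seen, was the interleukin-1 receptor gene Il1r1, at −1.23 in HM and −1.64 in LM. Of 16 expressed interferon genes, 8 were higher and 2 lower in HM_DFX, with a median of 0.93, and 8 were higher and 0 lower in LM_DFX, with a median of 1.10. Ifnb1, higher in both clones, is among the 16 only through its level under DFX. These counts therefore describe the list and are not support for a response of it. Irf7, a transcription factor of the interferon response, had log2 fold changes of 2.48 in HM and 4.31 in LM, the signal transducer Stat2 had 1.99 and 3.15, and Ddx58, which encodes the RNA sensor RIG-I, had 2.29 and 2.86. The 2 genes lower in HM, likewise named after their values were seen, were Irf3 (−1.15) and Tmem173 (−1.28), which encodes STING. Medians over all expressed genes were −0.10 in HM and −0.04 in LM. Of 7 mRNA decay genes, which include regulators of unstable chemokine transcripts, 1 was higher in each clone, Zfp36, at 1.68 in HM and 1.23 in LM. Zfp36l1 (0.61 and 0.70) and Rc3h1 (0.83 and 0.32) stayed within 2-fold. Of 7 expressed genes of the hypoxia pathway, 0 were higher and 2 lower in HM_DFX, and 3 were higher and 0 lower in LM_DFX, beside the same shares of 12.4% lower in HM_DFX and 7.09% higher in LM_DFX. With so few genes these counts describe the list only. The subunit Hif1a had log2 fold changes of −1.15 and −0.81, the ubiquitin ligase component Vhl of 0.38 and 1.22, and the prolyl hydroxylase Egln3 of −1.36 and 1.24. The other gene higher in LM was Egln1, at 1.03. Whether any of these genes bears on the chemokine levels was not tested.

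**Figure D5:**
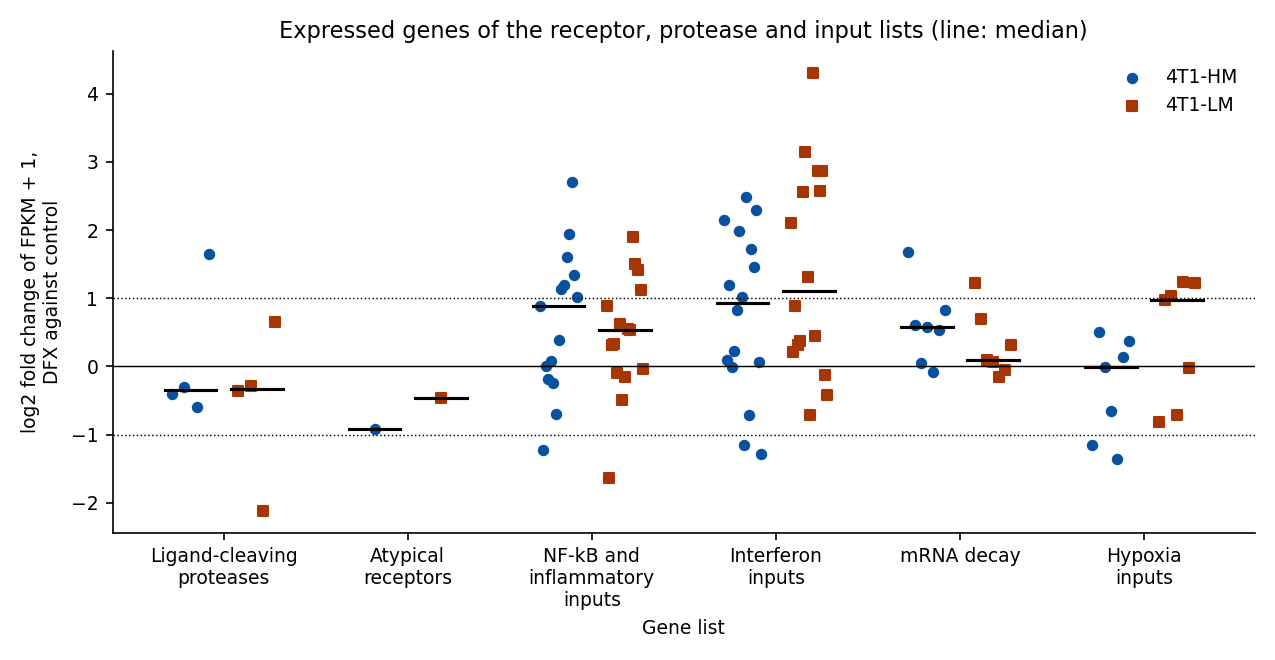
Log2 fold change of FPKM + 1 under DFX for the expressed genes of 6 lists, with circles for 4T1-HM, squares for 4T1-LM, black lines for the median of a list and dotted lines at 2-fold. The NF-kB and interferon lists have medians above 0 in both clones, and the hypoxia list has a median near 0 in 4T1-HM (−0.01) and of 0.97 in 4T1-LM.

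The genes with the most similar pattern over the 4 libraries were found as those with the smallest Euclidean distance between log2(FPKM + 1) values centered on their mean, among 12669 genes. With 4 points this likeness is a description and says nothing of shared function. For Cxcl1 they were Zbtb21 (distance 0.11) and Heatr9 (0.14), for Cxcl5 E130012A19Rik (0.33) and Hist1h1c (0.34), and for Cx3cl1 Cd276 (0.12) and Apbb1ip (0.13). For Cxcl11 they were Znfx1 (0.12) and Rhov (0.21). For Cxcl10 the closest were Krt16 at 0.53 and the chemokine gene Ccl5 at 0.76. Cxcl10 also had the widest range of log2(FPKM + 1) of the 10 genes, from 1.09 in LM_Ctrl to 6.59 in LM_DFX. Its distances are therefore not comparable with those of the other genes. Ccl5 had an FPKM of 10.7 in both controls, 278 in HM_DFX and 394 in LM_DFX. Cxcl16 was not matched because its range over the libraries was below 1 on the log2 scale.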

How the data were processed

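RNA was measured in 4 libraries of 4T1-HM and 4T1-LM cells, grouped by their labels. The authors trimmed paired-end reads of directional poly(A) libraries with Trimmomatic, aligned them to mm10 with HISAT2 and deposited a table of FPKM covering 49585 genes. The submitters' processing notes also name FastQC and featureCounts. Versions and the use of strand are not given in the sources used here. Without strand, overlapping genes on opposite strands cannot be told apart.

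Fragments were recovered from the deposited FPKM with exon lengths of GENCODE M21. Of 18236 genes above 0 with matching coordinates, 96.8% gave whole fragments in each library, with a tolerance of 0.02. Totals were 16745608 fragments without and 14363065 with DFX in 4T1-HM, and 15731521 without and 21883855 with DFX in 4T1-LM. Ratios have exact Clopper-Pearson intervals and levels exact Poisson intervals at 95%, which cover counting error only. Fold changes used a pseudocount of 1 FPKM and a 2-fold threshold. The study called genes with edgeR, which was not repeated because 1 library per condition gives no spread. The chemokine genes and all lists were chosen with earlier results of these data known. Genes of the lists were named by a rule. Every one of the 10 chemokine genes was named. All receptors, other ligands and proteases that reached 1 FPKM were named, and the 3 genes per input list with the largest change under DFX. For the pattern search, the 2 nearest genes were named. Python 3.11.15, pandas 2.3.3 and scipy 1.17.1 were used, and the calling was tested on simulated data. The 9 alternatives were pseudocounts of 0.1 and none, no filter, a filter on the mean, 3 other scalings, and thresholds of 1.5-fold and 4-fold. The principal transcript length was added after seeing the data.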

Additional observations from a re-analysis of the deposited data

Results flagged for a closer look

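One result named in the report passed 2-fold in opposite directions in the clones. Egln3, an iron-dependent prolyl hydroxylase that marks HIF for degradation, had a log2 fold change under DFX of −1.36 in HM and 1.24 in LM, a difference of −2.60. The difference was not tested, because each clone has 1 library per condition. None of the 10 chemokine genes met this condition.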

How the results depend on the processing

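The 10 counts of chemokine genes higher or lower were recomputed under 9 alternatives, and 80 of 90 values stayed within 1.5 times the reported count. With median-ratio scaling 1 gene was lower in HM_DFX than in HM_Ctrl, since Cxcl5 dropped below the threshold. The share of all expressed genes there was 10.8%, beside 12.4% in the main setting. Without a pseudocount 1 gene had a lower response in HM than in LM, since Cxcl11 has no ratio with 0 fragments in HM_Ctrl. Of all genes with a ratio, 10.7% had a lower response in HM there, beside 5.38% in the main setting. At 1.5-fold, 1 gene was lower in HM_Ctrl than in LM_Ctrl, beside 8.7% of all expressed genes. At this threshold 2 were higher in HM_DFX than in LM_DFX, beside 9.95%. As TPM, 3 genes rather than 2 were lower in HM_DFX than in LM_DFX, which counts as within 1.5 times. Cxcl3 had a log2 fold change of −1.21 there, and the share of all expressed genes was 6.95%, beside 5.05% in the main setting. At 4-fold the count was 0 for genes higher in HM_Ctrl than in LM_Ctrl, lower in either clone under DFX, higher or lower in HM_DFX than in LM_DFX, and lower in response in HM. The shares of all expressed genes in these directions lay between 0.284% and 1.31%. Of 235 recomputed log2 fold changes, 17 moved by more than counting error, 10 without a pseudocount, 5 with 0.1 FPKM, 1 as TPM and 1 with median-ratio scaling, and 0 called values changed sign. No paired analysis was possible because each condition has 1 library, and for the same reason none could be left out. Depth limits Cxcl2, Cxcl3, Cxcl9 and Cxcl12, at 38 fragments or fewer in every library, and the folds of Cxcl10 and Cxcl11 in LM, which rest on 40 and 1 fragments in the control.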

Other observations

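Although no signaling receptor gene was expressed above 1 FPKM, the few fragments found were not spread evenly over the libraries. The following genes were singled out after their values were seen. Cxcr3, the receptor of Cxcl10 and Cxcl11, had 25 fragments in HM_Ctrl and 10 in LM_Ctrl, and 0 in both DFX libraries. Cxcr4, the receptor of Cxcl12, had 9 fragments without and 1 with DFX in 4T1-HM, and 0 in 4T1-LM. Cxcr6, the receptor of Cxcl16, had 12 fragments in LM_Ctrl and 0 elsewhere. Not all receptors had fewer fragments with DFX. Cx3cr1 had 2 fragments without and 2 with DFX in 4T1-HM, and 2 without and 7 with DFX in 4T1-LM. Cxcr2 had 0 fragments in both controls, 2 in HM_DFX and 1 in LM_DFX. Among the interferon genes, Ifnb1, which encodes interferon beta, gave 0 fragments without and 37 with DFX in 4T1-HM, and 1 without and 60 with DFX in 4T1-LM.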
